A study of Mus musculus with 8 samples.

Results

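Oxidative phosphorylation is carried out in the inner mitochondrial membrane by complexes I to V, and the genes described here are those that encode their subunits in the nucleus. They were chosen by name: every symbol that starts as the subunits of NADH dehydrogenase (Nduf), succinate dehydrogenase (Sdh), cytochrome bc1 (Uqcr), cytochrome c oxidase (Cox) and ATP synthase (Atp5) do, assembly factors left out. This gave 82 of the 23038 symbols, 37 for complex I, 4 for complex II, 8 for complex III, 16 for complex IV and 17 for complex V. Their levels were compared in 8 RNA-seq libraries of mouse pluripotent stem cells, 2 per group. The Dnd1-KD ES cells were embryonic stem cells of the 129/Ola strain, labelled wild type by genotype and Dnd1-KD by sample type, at passages 10 to 12. CDGC1 and CDGC6 are independent pluripotent lines that came from early teratoma cells in the testis of new-born mice. Both carried the strain label 129Sv/Dnd1ter/ter/Oct4deltaPE-GFP, that is, they were homozygous for the ter mutation of Dnd1 and held an Oct4 reporter transgene, and were at passages 15 to 18. Each is 1 line. The control was the wild-type ES cell line E14tg2a (129/Ola) at passages 10 to 12. All cells were kept in DMEM with serum and LIF. Between the derived lines and the control, origin, strain, genotype, transgene and passage differ together and cannot be told apart.

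In this pathway complexes I, III and IV pass electrons from NADH to oxygen and pump protons, complex II feeds in electrons from succinate, and ATP synthase uses the proton gradient to make ATP. A small set of core subunits does the chemistry, and many accessory subunits hold the complexes together. Naive pluripotent cells are known to use both glycolysis and respiration, and respiration is known to be lower in the primed state. The subunits encoded in mitochondrial DNA were not analysed here.

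Expression is in FPKM, fragments scaled to transcript length and to the mapped fragments of the library, so levels can roughly be set side by side between genes. The members' transcripts have a median length of 732 bases, against 2313 over coding genes. The effect of this on their levels was not tested. A difference is the log2 difference of FPKM + 1 with its standard error (SE), and an adjusted p is that of limma's moderated test with Benjamini-Hochberg adjustment over the 11886 genes or joined genes that reached 1 FPKM in 2 or more of the 8 libraries. Differences past an adjusted p of 0.05 are called higher or lower. The files hold no counts, and no library depth is stated. If the width of their FPKM intervals held counting error alone, which the files do not say, it would correspond to between 10696336 fragments in the second Dnd1-KD library and 18008634 in the first control library. Whether paired libraries stem from independent cultures is not given in the labels, and the p-values therefore reflect library-to-library spread alone, possibly technical. Dnd1 (chromosome 18, 36763671 to 36766214) was part of a joint entry with Hars at 57.6 and 53.9 FPKM in the Dnd1-KD libraries, and was listed at 0 in the 6 other libraries, so the files gave no check of the knockdown. No pluripotency marker on the list was at 0 in both libraries of a group, although Zfp42 was at 0 in the second CDGC1 library. Summed markers of other cell types differed by list and group. Striated muscle markers summed to 4.23 to 4.45 FPKM in Dnd1-KD, 10.0 to 13.6 FPKM in CDGC1, 8.49 to 11.4 FPKM in CDGC6 and 5.73 to 6.47 FPKM in control. Endoderm markers summed to 4.28 to 5.35 FPKM in Dnd1-KD, 8.90 to 41.1 FPKM in CDGC1, 3.53 to 7.20 FPKM in CDGC6 and at most 1.63 FPKM in control. Neural markers summed to 33.8 to 38.3 FPKM in Dnd1-KD, 7.39 to 9.15 FPKM in CDGC1, 32.3 to 38.4 FPKM in CDGC6 and 44.7 to 45.0 FPKM in control. The 4 of 5 testis somatic markers with entries of their own summed to at most 3.60 FPKM and the 3 of 4 such leukocyte markers to at most 0.118 FPKM in any library. Insl3 of the testis list was held only as a joint value with Jak3. Cd68 of the leukocyte list was held only as a joint value with Eif4a1, a translation factor, and others (−0.66 in Dnd1-KD, −0.31 in CDGC1 and −0.40 in CDGC6, adjusted p = 0.00265, 0.0159 and 0.0195), in which the share of Cd68 cannot be told. These sums leave out all joint values, and the part of these lists in the results was not tested.

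Of the 82 genes, 77 passed the filter on low values. The 5 others were Ndufa4l2, Ndufs1, Cox6a2, Cox8b and Cox8c. Ndufa4l2, known as a gene induced in hypoxia, was listed at 0 in all 8 libraries. Cox6a2 and Cox8b, isoforms of heart and skeletal muscle, and Cox8c, a testis isoform, stayed under 0.5 FPKM in every library. Ndufs1 encodes the largest core subunit of complex I and was listed at 63.9 FPKM in the first CDGC1 library and at 0 in the 7 others. Its locus overlaps that of Eef1b2 on the other strand, and an exact 0 may be a failed estimate, so Ndufs1 had no usable level. A further 6 members were joined with a neighbour in at least 1 library and are given as joint values, namely Atp5e with Slmo2, Cox7a1 with Gm5113, Cox8a with Otub1, Ndufa13 with Gatad2a, Ndufa7 with Kank3 and Ndufs5 with BC002163.

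The most abundant member was Atp5b, the catalytic beta subunit of ATP synthase (chromosome 10, 128083273 to 128090391, plus strand, mm10). It stood at 819 and 832 FPKM in Dnd1-KD, 1408 and 1391 FPKM in CDGC1, 1045 and 1073 FPKM in CDGC6 and 964 and 982 FPKM in control, so that no group overlapped another. In control it was followed by Atp5g3 (409 ± 1.33 FPKM, SD, n = 2), Atp5a1 (398 ± 3.52 FPKM) and Cox7c (391 ± 6.01 FPKM), leaving aside Atp5k and Uqcr11, whose control libraries disagreed. At the low end were isoforms and the genes Atp5s, listed at 0 in both control libraries, Cox7b2 (1.12 ± 0.0733 FPKM), Ndufa11 (16.7 ± 2.33 FPKM) and Cox7a1 (17.7 ± 1.19 FPKM). Ndufs8, a core subunit of complex I, stood at 49.4 and 47.8 FPKM in control, well below the alpha and beta subunits of ATP synthase.

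Leaving out 13 members whose libraries differed by more than 1.5-fold in a group, the other 69 summed to 9543 and 9162 FPKM in Dnd1-KD, 12232 and 12208 FPKM in CDGC1, 11469.7 and 12809 FPKM in CDGC6, and 10932 and 10991 FPKM in control. The Dnd1-KD sums lay below, and those of both derived lines above, the control sums. The 15 such members of complex V summed to 3471 and 3276 FPKM in Dnd1-KD, 5074 and 5024 FPKM in CDGC1, 4464 and 4848 FPKM in CDGC6 and 4241 and 4249 FPKM in control. The 31 of complex I summed to 2657 and 2604 FPKM in Dnd1-KD, 3235 and 3281 FPKM in CDGC1, 3174 and 3491 FPKM in CDGC6 and 2925 and 2995 FPKM in control. In complex IV the 14 members summed to 2354 and 2321 FPKM in Dnd1-KD, 2605 and 2605 FPKM in CDGC1, 2668 and 3172 FPKM in CDGC6 and 2612 and 2609.6 FPKM in control, so the CDGC1 and control sums were nearly equal there. These sums are descriptions and were not tested.

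**Figure D1:**
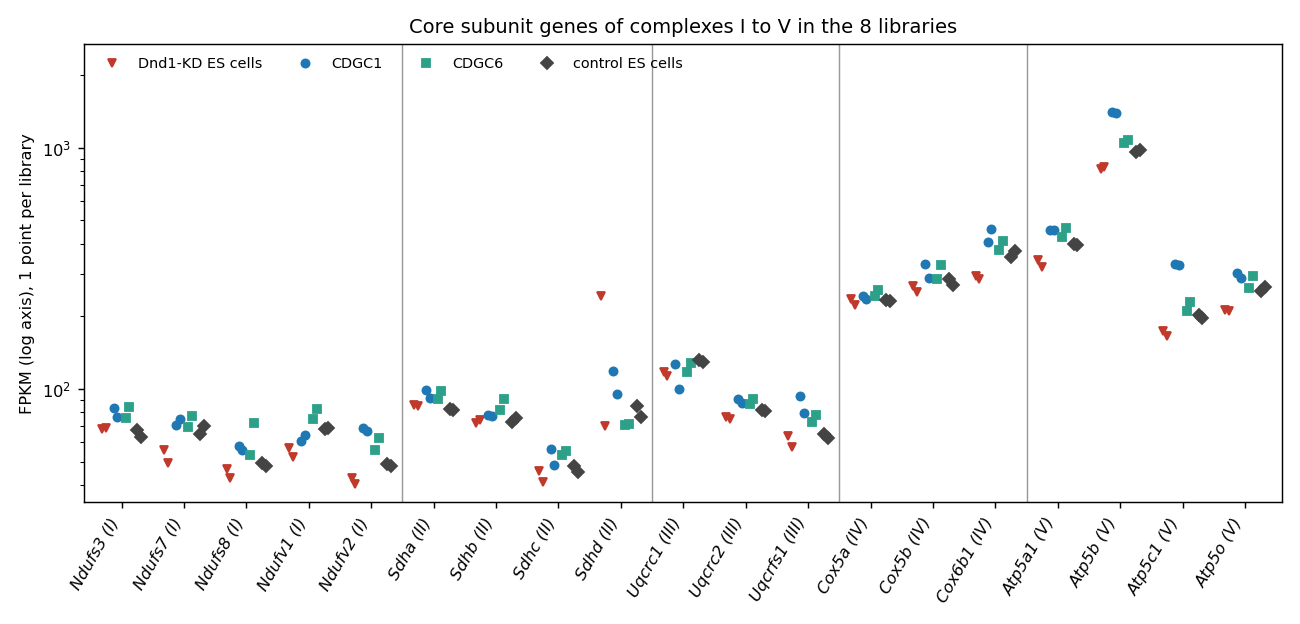
FPKM of 19 tested core subunit genes (log axis), 1 point per library, with Dnd1-KD, CDGC1, CDGC6 and control from left to right within each gene and grey lines between the complexes given in brackets. Atp5b is the highest in every library, Atp5c1 and Atp5b are higher in CDGC1, and the first Dnd1-KD library stands apart for Sdhd.

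A few members differed between the libraries of 1 group far more than the rest. Among members with at least 5 FPKM the median ratio between the libraries was 1.07 in Dnd1-KD, 1.07 in CDGC1, 1.10 in CDGC6 and 1.03 in control. More than 1.5-fold apart were 3 of 75 members in Dnd1-KD, 3 of 76 in CDGC1, 6 of 75 in CDGC6 and 2 of 75 in control. Ndufb10, an accessory subunit of the membrane arm of complex I, was at 0 and 92.3 FPKM in Dnd1-KD, 91.3 and 105 FPKM in CDGC1, 124 and 0 FPKM in CDGC6, and 117 and 121 FPKM in control. Both zeros stand against high values in the partner library, so no direction is given for it. Uqcr11, a small subunit of complex III, was at 179.6 and 157 FPKM in Dnd1-KD, 191 and 204 FPKM in CDGC1, 230.2 and 239 FPKM in CDGC6, and 648 and 219 FPKM in control. Sdhd, a membrane anchor of complex II, was at 243 and 70.2 FPKM in Dnd1-KD, 119 and 95.2 FPKM in CDGC1, 71.2 and 71.3 FPKM in CDGC6, and 85.1 and 76.2 FPKM in control. In the second CDGC6 library Ndufa3 and the joint Ndufa13 value stood at 263 and 232 FPKM, against 92.9 and 89.8 FPKM in the first. The files' own intervals for such pairs did not meet, for example 618 to 678 FPKM and 205 to 234 FPKM for Uqcr11 in the control libraries. Of the 13 genes with such a gap, those called in a comparison with control were Uqcr10 in CDGC1, Cox6b2 in both derived lines and Atp5k in Dnd1-KD.

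More subunit genes fell than rose in Dnd1-KD cells relative to control, and ATP synthase held the most of the falls. Of the 77 tested genes 23 fell and 2 rose, while over all genes tested 15.5% were called lower and 20.7% higher (36.2% in all). The median log2 difference of the members was −0.19, against 0.02 over all genes tested, and 67 of the 77 had a negative difference. In 56 members both Dnd1-KD libraries lay below both control libraries (37.4% of all genes tested), and in 6 both lay above (42.2%). Complex V had 11 of 17 members lower, complex IV 4 of 13, complex I 7 of 35, complex III 1 of 8 and complex II none of 4. With quantile normalization in place of the deposited scale 12 of the 77 members fell and 6 rose. Over all genes tested 18.7% were then called lower and 18.6% higher, so the members' share of falls was below that of all genes. The median difference was −0.08 among the members under this scaling, against −0.02 over all genes tested. Median-ratio scaling gave 30 falls and 2 rises, with 18.8% of all genes tested called lower and 18.1% higher. The medians were then −0.24 among the members and −0.02 over all genes tested. On the deposited scale the members' median difference was −0.19 without the first control library and −0.20 without the second. It was −0.22 without the first Dnd1-KD library and −0.17 without the second. In each of these fits, where 1 group has 1 library, fewer than 23 members fell. A smaller share of all genes tested was called lower in them as well. Of the 8 pluripotency markers 7 were lower in Dnd1-KD, and the 7 of them with entries of their own summed to 924 to 1134 FPKM in Dnd1-KD and 1832 to 1833 FPKM in control. Of 5 tested fibroblast or feeder markers of 8 listed 1 was higher, with sums of 9.92 to 10.4 FPKM in Dnd1-KD and 6.51 to 7.20 FPKM in control and with Lum at 0 in Dnd1-KD. The part of these in the results was not tested. In these bulk samples fewer cells of a type and less RNA per cell cannot be told apart.

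**Figure D2:**
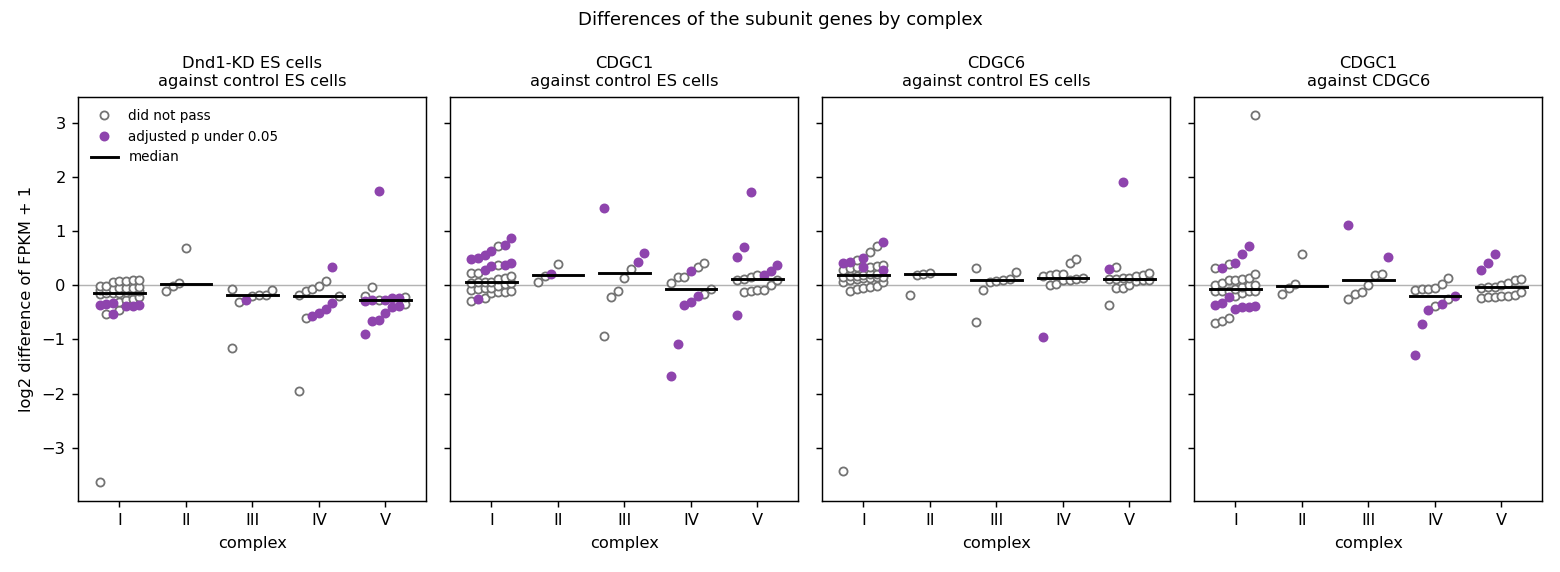
Log2 difference of FPKM + 1 for the 77 tested genes by complex in the 4 comparisons, 1 point per gene, with filled points for an adjusted p under 0.05 and bars for the median of each complex. In Dnd1-KD the filled points of complex V lie below 0 except for Atp5s, in CDGC1 against control those of complexes I and III lie mostly above 0, and in CDGC1 against CDGC6 those of complex IV lie below 0.

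The head of ATP synthase and its central stalk turn the proton flow into ATP. Here 4 of 5 subunits fell in Dnd1-KD. Atp5a1, the alpha subunit, was at 341 and 320.1 FPKM in Dnd1-KD and 400.3 and 395 FPKM in control (−0.27 ± 0.07, adjusted p = 0.0251). For Atp5b the difference was −0.24 ± 0.06 (adjusted p = 0.0205) and for Atp5c1, the gamma subunit, −0.23 ± 0.06 (adjusted p = 0.0337), with no overlap between the libraries of either gene. The joint value of Atp5e, the epsilon subunit, was at 239.9 and 249.8 FPKM in Dnd1-KD and 296 and 298 FPKM in control. Atp5d, the delta subunit, had a difference of −0.19 ± 0.08 and did not pass (adjusted p = 0.109).

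The ring of c subunits, which turns as protons pass, is built from 1 mature protein that Atp5g1, Atp5g2 and Atp5g3 all encode, and all of these genes fell in Dnd1-KD. Atp5g1 was at 116 and 100.1 FPKM in Dnd1-KD and 174 and 164 FPKM in control (−0.64 ± 0.14, adjusted p = 0.0160). Atp5g2 was at 265 and 233 FPKM in Dnd1-KD and 326 and 326 FPKM in control (−0.39 ± 0.08, adjusted p = 0.0120). Atp5g3, the most abundant of them, was at 303 and 274 FPKM in Dnd1-KD and 408 and 409.8 FPKM in control (−0.50 ± 0.08, adjusted p = 0.00629). The groups overlapped in none of these genes. Atp5g3 was the 1 gene of the 23 that stayed called whichever library was left out, with an adjusted p of at most 0.0482.

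In the peripheral stalk, which holds the head still, 2 of 4 subunits fell, Atp5j (factor F6) and Atp5o (the oligomycin sensitivity protein). Atp5j was at 238 and 164 FPKM in Dnd1-KD and 306 and 317 FPKM in control (−0.65 ± 0.17, adjusted p = 0.0279). Atp5o was at 212 and 211 FPKM in Dnd1-KD and 254 and 265 FPKM in control (−0.29 ± 0.07, adjusted p = 0.0266). The b and d subunits did not pass, with a difference of −0.04 for Atp5f1 and −0.27 for Atp5h (adjusted p = 0.911 and 0.0516). Among the small membrane subunits, which help the enzyme to form dimers, Atp5k (subunit e) had the largest fall of all called members. It was at 329 and 351 FPKM in Dnd1-KD, against 498 and 811 FPKM in control (−0.90 ± 0.21, adjusted p = 0.0217), and the control libraries were 1.63-fold apart. Atp5j2 (subunit f) was at 208 and 209 FPKM in Dnd1-KD and 275 and 274 FPKM in control (−0.39 ± 0.07, adjusted p = 0.00783). Atp5l (subunit g) was at 203 and 179 FPKM in Dnd1-KD and 225 and 218 FPKM in control and did not pass (adjusted p = 0.164).

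Calls in complex V ended as follows when a library was left out. Without the first control library 9 ended, all 4 of the head, Atp5g1, Atp5g2, Atp5j, Atp5j2 and Atp5o (adjusted p = 0.0601 to 0.185), and without the second control library the same 9 did (adjusted p = 0.0547 to 0.148). Without the first Dnd1-KD library the calls of Atp5b, Atp5c1, Atp5e, Atp5k and Atp5o ended (adjusted p = 0.0653 to 0.124). Without the second, 9 ended, those of the head, Atp5g1, Atp5g2, Atp5j, Atp5k and Atp5o (adjusted p = 0.0526 to 0.142). Under quantile normalization Atp5b differed by 0.026 and was not called (adjusted p = 0.804), and the calls of Atp5a1, Atp5c1, Atp5e, Atp5g2, Atp5j and Atp5o ended as well. Atp5s, named with ATP synthase but not a settled subunit of it, was at 2.45 and 2.25 FPKM in Dnd1-KD, 2.42 and 2.17 FPKM in CDGC1 and 2.49 and 3.02 FPKM in CDGC6 and was listed at 0 in both control libraries. Such a 0 can be a failed estimate, so no fold is given for it, although it counts among the called members of each comparison with control.

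**Figure D3:**
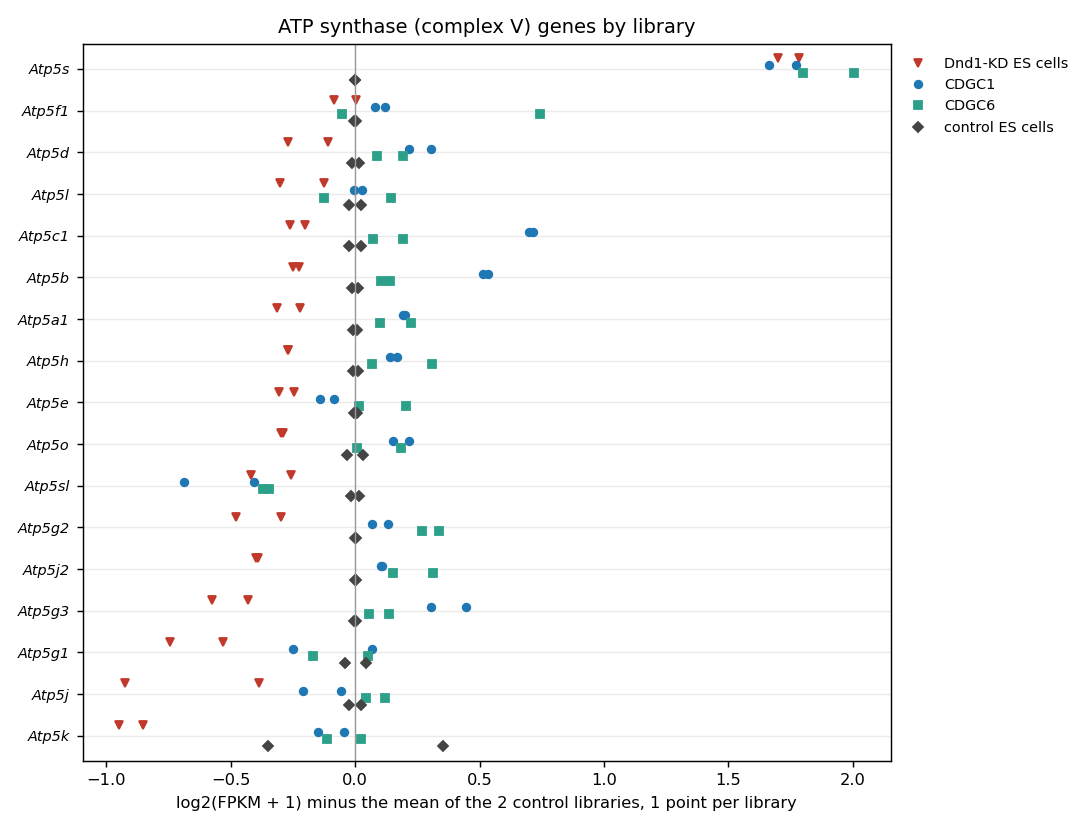
Each library's log2(FPKM + 1) minus the mean of the control libraries for the 17 ATP synthase genes, ordered by the difference in Dnd1-KD, with Dnd1-KD, CDGC1, CDGC6 and control from top to bottom within each gene. The Dnd1-KD points lie left of the control points in 15 genes, and the CDGC1 points of Atp5c1 and Atp5b lie far to the right of it.

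The promoter windows of Atp5k and Atp5j are shown because these genes had the largest falls in Dnd1-KD, and because the windows hold letters of regulators of mitochondrial genes. They are RefSeq windows on GRCm38 (mm10) from 250 bases before to 50 after a transcript start, read 5′ to 3′ along the gene, and capitals mark motif letters found on either strand. In Atp5k (chr5:108434350-108434649, minus strand) these are in order the NRF1 letters CGCATGCGC, which read nearly the same on both strands and are found on both here, the ETS letters CCGGAAG in reverse, and the ESRRB letters AAGGTCA. In Atp5j the lower of its windows (chr16:84834927-84835226, minus strand) holds the YY1 letters AAGATGGC and then the ETS letters. Atp5j overlaps Gabpa on the other strand, the gene of the ETS factor of that name.
Atp5k: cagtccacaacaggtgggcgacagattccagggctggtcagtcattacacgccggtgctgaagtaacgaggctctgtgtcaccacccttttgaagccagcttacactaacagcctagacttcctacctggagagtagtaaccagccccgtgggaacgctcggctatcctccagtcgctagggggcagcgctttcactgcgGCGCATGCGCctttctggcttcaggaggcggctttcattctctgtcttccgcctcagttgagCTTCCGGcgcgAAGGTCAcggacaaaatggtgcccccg
Atp5j: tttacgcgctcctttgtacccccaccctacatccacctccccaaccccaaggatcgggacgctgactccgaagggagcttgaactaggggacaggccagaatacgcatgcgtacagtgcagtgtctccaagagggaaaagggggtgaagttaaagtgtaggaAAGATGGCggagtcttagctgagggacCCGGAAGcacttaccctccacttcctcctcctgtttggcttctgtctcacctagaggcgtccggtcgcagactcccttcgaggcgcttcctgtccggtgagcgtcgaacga

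Cytochrome c oxidase passes electrons to oxygen, and 4 of its 9 general subunit genes fell in Dnd1-KD. Cox7a2 was at 83.2 and 68.7 FPKM in Dnd1-KD and 114 and 109.8 FPKM in control (−0.56 ± 0.11, adjusted p = 0.0128). Cox7c was at 288 and 258 FPKM in Dnd1-KD and 396 and 387 FPKM in control (−0.52 ± 0.14, adjusted p = 0.0307). Cox7b was at 93.7 and 81.1 FPKM in Dnd1-KD and 122 and 113 FPKM in control (−0.43 ± 0.10, adjusted p = 0.0213), and Cox6b1, a subunit on the intermembrane side, fell as well (−0.33 ± 0.08, adjusted p = 0.0268). No groups overlapped in these genes. Cox5a and Cox5b, the subunits on the matrix side, did not pass, with differences of −0.02 and −0.10 (adjusted p = 0.833 and 0.447). Cox7a2l, which is known to join complexes III and IV into supercomplexes, rose: it was at 172 and 167 FPKM in Dnd1-KD and 134 and 134 FPKM in control (0.34 ± 0.06, adjusted p = 0.00801). With the first control library left out all 5 genes lost their calls (adjusted p = 0.0663 to 0.130) and without the second (adjusted p = 0.0590 to 0.144). With quantile normalization the falls of Cox6b1 and Cox7c were not called. Those of Cox6b1 and Cox7c also ended without the first Dnd1-KD library (adjusted p = 0.0632 to 0.0754), and the 4 falls without the second (adjusted p = 0.0565 to 0.150).

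In complex I of Dnd1-KD cells 7 of 35 members fell (20%) and none rose. The share of falls was near the 15.5% of all genes tested, of which 20.7% were called higher. Among its core subunits, Ndufv1, which takes the electrons from NADH, was at 56.8 and 52.1 FPKM in Dnd1-KD and 68.3 and 69.2 FPKM in control (−0.33 ± 0.08, adjusted p = 0.0200). Ndufs7, which holds an iron-sulfur cluster close to the quinone site, was at 55.7 and 49.3 FPKM in Dnd1-KD and 65.4 and 69.9 FPKM in control (−0.36 ± 0.09, adjusted p = 0.0245). Ndufs3, Ndufs8 and Ndufv2 had differences of 0.07, −0.12 and −0.21 and did not pass. Of the accessory subunits, Ndufv3 of the matrix arm was at 49.6 and 45.5 FPKM in Dnd1-KD and 72.3 and 65.9 FPKM in control (−0.53 ± 0.09, adjusted p = 0.00829), and Ndufs6 (−0.37) and the membrane arm genes Ndufb4 (−0.38) and Ndufb6 (−0.34) fell by less. Ndufa4, named with complex I but now taken as a subunit of complex IV, was at 304 and 282 FPKM in Dnd1-KD and 381 and 388 FPKM in control (−0.39 ± 0.09, adjusted p = 0.0167). With the first control library left out all 7 calls were lost (adjusted p = 0.0630 to 0.120) and without the second Dnd1-KD library (adjusted p = 0.0508 to 0.155), and all but that of Ndufv3 without the second control library (adjusted p = 0.0895 to 0.208). Without the first Dnd1-KD library Ndufb4 and Ndufs6 were no longer called (adjusted p = 0.0640 to 0.158), and the calls of Ndufa4 and Ndufs6 ended with quantile normalization. Ndufs6 was not called without either CDGC1 library (adjusted p = 0.0503 and 0.0502).

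Complex III of Dnd1-KD cells had 1 fall among 8 members (12.5%, against 15.5% of all genes tested), that of Uqcrb, an accessory subunit near the quinone site. It was at 194 and 197 FPKM in Dnd1-KD and 237 and 235 FPKM in control (−0.27 ± 0.08, adjusted p = 0.0346), and the call ended without either control library (adjusted p = 0.156 and 0.138) or either Dnd1-KD library (adjusted p = 0.111 and 0.113). It ended with quantile normalization as well, and it was the 1 fall of complex III. The core proteins Uqcrc1 and Uqcrc2 and the Rieske protein Uqcrfs1 had differences of −0.18, −0.10 and −0.07 that did not pass. No gene of complex II passed. Sdha, its flavoprotein, was at 85.4 and 84.6 FPKM in Dnd1-KD and 82.5 and 82.1 FPKM in control, and Sdhb, its iron-sulfur protein, at 72.5 and 74.7 FPKM in Dnd1-KD and 72.8 and 75.5 FPKM in control, so the libraries of the groups lay within a few FPKM of each other.

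In CDGC1 relative to control more members rose than fell in complexes I, III and V, and more fell than rose in complex IV. Complex II had 1 call, the rise of Sdha. Of the 77 members 21 rose (27.3%) and 7 fell (9.09%), while over all genes tested 23.5% were called higher and 27.0% lower (50.5% in all). The members' share of rises was thus near that of all genes tested, and their share of falls was below it. The median difference was 0.11 among the members and −0.03 over all genes tested. Both CDGC1 libraries lay above both control libraries in 43 members (37.2% of all genes tested) and below in 22 (41.6%). By complex the rises and falls were 10 and 1 of 35 in complex I, 1 and 0 of 4 in complex II, 3 and 0 of 8 in complex III, 1 and 5 of 13 in complex IV, and 6 and 1 of 17 in complex V. Of the 20 core subunits tested 8 rose and none fell. The median difference of the members was 0.11 without the first control library and 0.11 without the second. Fewer members were called in either direction in these fits, and fewer of all genes tested were called as well. Of the pluripotency markers 5 of 8 were lower and 1 was higher in CDGC1, and 3 markers of the naive state were close to absent. Zfp42 was at 0.0220 and 0 FPKM in CDGC1 and 335 and 352 FPKM in control, the joint value of Dppa5a and Ooep at 2.24 and 1.57 FPKM in CDGC1 and 2156 and 2418 FPKM in control, and Esrrb at 0.211 and 0.140 FPKM in CDGC1 and 78.6 and 82.9 FPKM in control. The calls of these 3 held whichever library was left out. The 7 markers with entries of their own, which leave out Dppa5a, summed to 1404 to 1427 FPKM in CDGC1 and 1832 to 1833 FPKM in control. Of 5 tested fibroblast or feeder markers of 8 listed, 4 were higher, with sums of 33.1 to 33.9 FPKM in CDGC1 and 6.51 to 7.20 FPKM in control and none at 0 in either. The part of these in the results was not tested.

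In complex I the largest rise in CDGC1 was that of Ndufa8, an accessory subunit on the intermembrane side (chromosome 2, 36036326 to 36049406, minus strand). It was at 109 and 104 FPKM in CDGC1 and 56.8 and 59.3 FPKM in control (0.86 ± 0.06, adjusted p = 9.09e-05). Ndufc2, a membrane arm subunit, was at 94.7 and 104 FPKM in CDGC1 and 57.7 and 60.003 FPKM in control (0.74 ± 0.10, adjusted p = 0.00137). Ndufs4, a matrix arm subunit whose loss in mice gives a model of Leigh syndrome, was at 48.3 and 52.0 FPKM in CDGC1 and 31.7 and 32.5 FPKM in control (0.63 ± 0.08, adjusted p = 0.00124). The libraries of these groups did not overlap. Ndufa12 (0.55) and Ndufa2 (0.50) of the matrix arm rose too, and so did the core genes Ndufv2, at 68.7 and 67.1 FPKM in CDGC1 and 48.7 and 48.0 FPKM in control (0.48 ± 0.07, adjusted p = 0.00260), and Ndufs3 (0.28, adjusted p = 0.0233). Ndufv1, the partner of Ndufv2, differed by −0.13 and was not called (adjusted p = 0.214). The 1 fall was that of the joint Ndufa7 value, at 169 and 179 FPKM in CDGC1 and 201 and 216 FPKM in control (−0.26 ± 0.07, adjusted p = 0.0273). The calls of Ndufa7, Ndufc1 and Ndufs3 ended without the first CDGC1 library (adjusted p = 0.0862 to 0.0999) or the first control library (adjusted p = 0.0631 to 0.107). Without the second control library these and Ndufb7 and Ndufv3 were no longer called (adjusted p = 0.0537 to 0.161), and Ndufv3 was not called without the second CDGC1 library (adjusted p = 0.0502).

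The promoter window of Ndufa8 (chr2:36049289-36049588, minus strand) is shown since it had the largest rise among complex I genes in CDGC1. Its NRF1 letters, in capitals, start 9 bases before the transcript start.
Ndufa8: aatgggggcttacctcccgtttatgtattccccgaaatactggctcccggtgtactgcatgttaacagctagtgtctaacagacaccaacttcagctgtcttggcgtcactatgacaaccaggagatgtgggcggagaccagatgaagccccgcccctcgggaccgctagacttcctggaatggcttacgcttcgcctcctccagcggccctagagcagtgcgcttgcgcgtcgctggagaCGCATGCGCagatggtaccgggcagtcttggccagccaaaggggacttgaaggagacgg

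**Figure D4:**
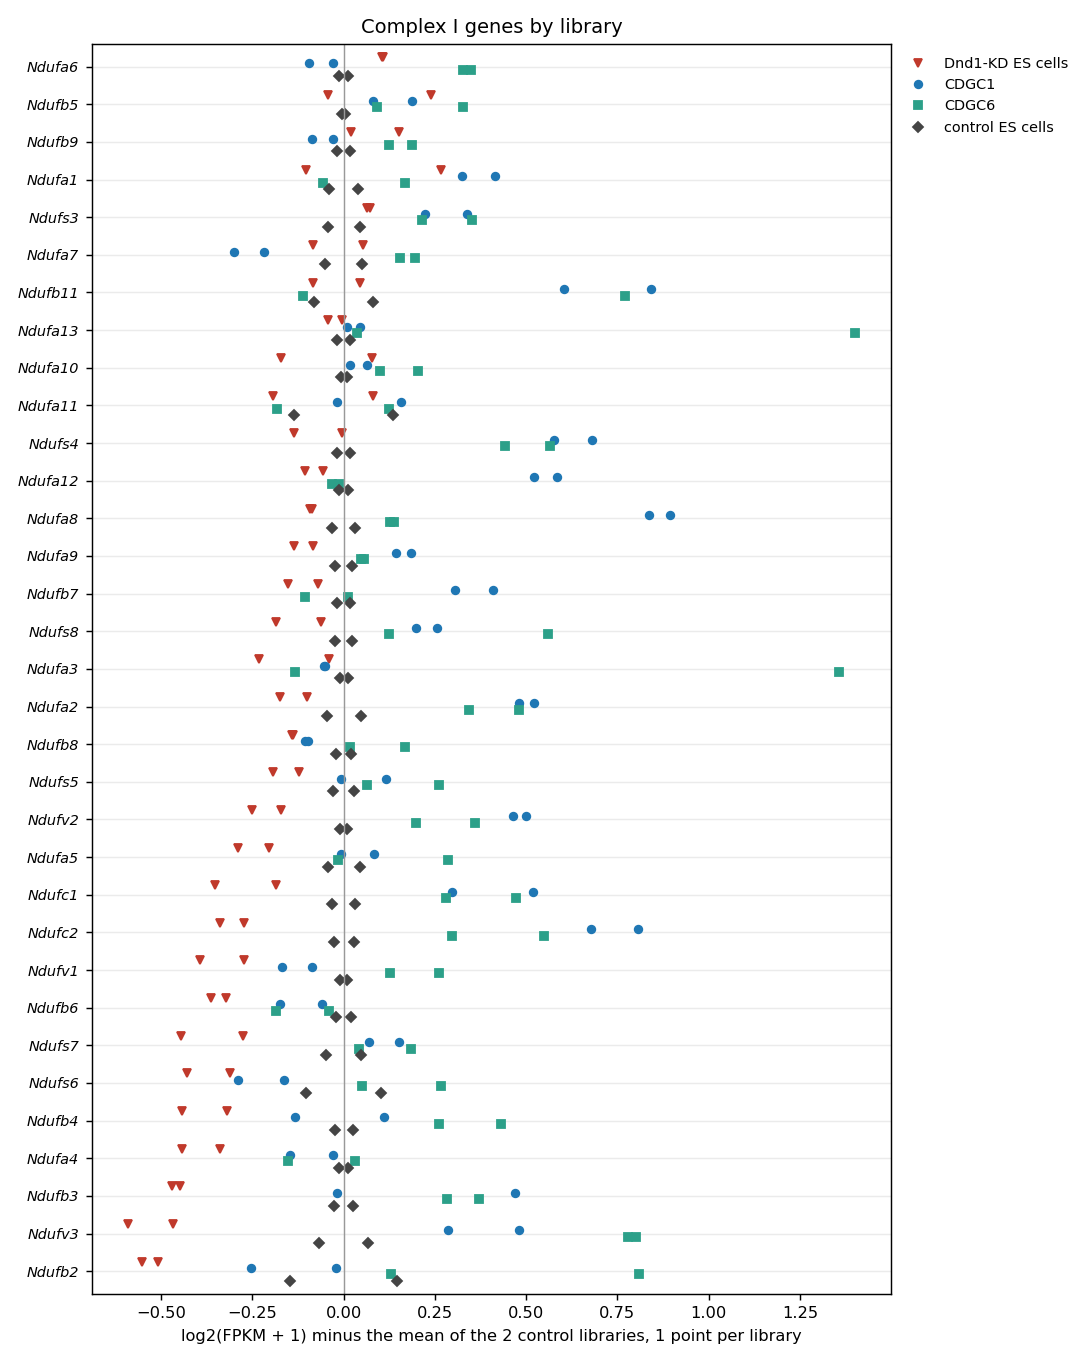
Each library's log2(FPKM + 1) minus the mean of the control libraries for 33 complex I genes, ordered by the difference in Dnd1-KD, with Dnd1-KD, CDGC1, CDGC6 and control from top to bottom within each gene. Ndufb10, listed at 0 in 2 libraries, is not drawn. Ndufa8, Ndufc2 and Ndufs4 lie to the right in CDGC1, Ndufv3 lies to the left in Dnd1-KD and to the right in both derived lines, and single CDGC6 libraries stand apart for Ndufa3 and Ndufa13.

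In complexes II and III of CDGC1, 4 of 12 members rose and none fell. Uqcrq, an accessory subunit of complex III, was at 220.4 and 209 FPKM in CDGC1 and 143 and 139 FPKM in control (0.60 ± 0.11, adjusted p = 0.00534). Uqcrfs1, the Rieske iron-sulfur protein, was at 93.3 and 79.5 FPKM in CDGC1 and 64.8 and 62.6 FPKM in control (0.43 ± 0.10, adjusted p = 0.0119). Uqcr10 was at 861 and 356 FPKM in CDGC1 and 204 and 206 FPKM in control (1.43 ± 0.37, adjusted p = 0.0195). The first CDGC1 library stood apart, with an interval in the file of 795 to 927 FPKM that does not reach the 336 to 376 FPKM of the second. Sdha rose by little, to 99.1 and 92.1 FPKM in CDGC1, against 82.5 and 82.1 FPKM in control (0.21 ± 0.07, adjusted p = 0.0364). The calls of Uqcr10 and Uqcrfs1 were lost with the first control library left out (adjusted p = 0.0504 to 0.0739) or the second (adjusted p = 0.0685 to 0.0723). That of Sdha ended without the first CDGC1 library (0.117), either control library (0.145 and 0.154) or either Dnd1-KD library (0.0536 in both cases). With quantile normalization Sdha, the 1 called gene of complex II, was not called.

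In complex IV of CDGC1 5 of 13 members fell and 1 rose. Cox6b2, the testis isoform of subunit 6B (chromosome 7, 4751792 to 4753094, minus strand), had the largest fall, at 18.9 and 29.9 FPKM in CDGC1, 42.8 and 37.2 FPKM in CDGC6 and 71.6 and 84.8 FPKM in control (−1.67 ± 0.22, adjusted p = 0.00130, for CDGC1 against control). Its general counterpart Cox6b1 rose, at 408 and 461 FPKM in CDGC1 and 352 and 375 FPKM in control (0.26 ± 0.08, adjusted p = 0.0428), and was the more abundant isoform in every library. Cox7b2, a testis-enriched isoform of subunit 7B, was listed at 0 in both CDGC1 libraries and was at 1.42 and 1.46 FPKM in CDGC6 and 1.07 and 1.18 FPKM in control, levels near the filter, so no fold is given. Cox6a1 was at 295 and 310.4 FPKM in CDGC1 and 364 and 389 FPKM in control (−0.31 ± 0.08, adjusted p = 0.0228). Cox6c was at 246 and 233 FPKM in CDGC1 and 309 and 306 FPKM in control (−0.36 ± 0.11, adjusted p = 0.0385), and Cox7a2l, which rose in Dnd1-KD, fell here (−0.19 ± 0.06, adjusted p = 0.0336). The muscle isoform Cox7a1, a joint value, was at 1.10 and 10.3 FPKM in Dnd1-KD, 22.7 and 25.0 FPKM in CDGC1, 24.5 and 26.0 FPKM in CDGC6 and 18.6 and 16.9 FPKM in control and passed in no comparison. The calls of Cox6a1, Cox6b1, Cox6c and Cox7a2l were lost with the first control library left out (adjusted p = 0.0599 to 0.206) or the second (adjusted p = 0.0924 to 0.155). Cox6a1 and Cox6c were not called without the first CDGC1 library (adjusted p = 0.0795 to 0.0885), nor Cox6b1, Cox6c and Cox7a2l without the second (adjusted p = 0.0951 to 0.153), and the call of Cox6b1 ended without either Dnd1-KD library (0.0678 and 0.0677). With median-ratio scaling Cox6a1, Cox6c and Cox7a2l were not called.

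**Figure D5:**
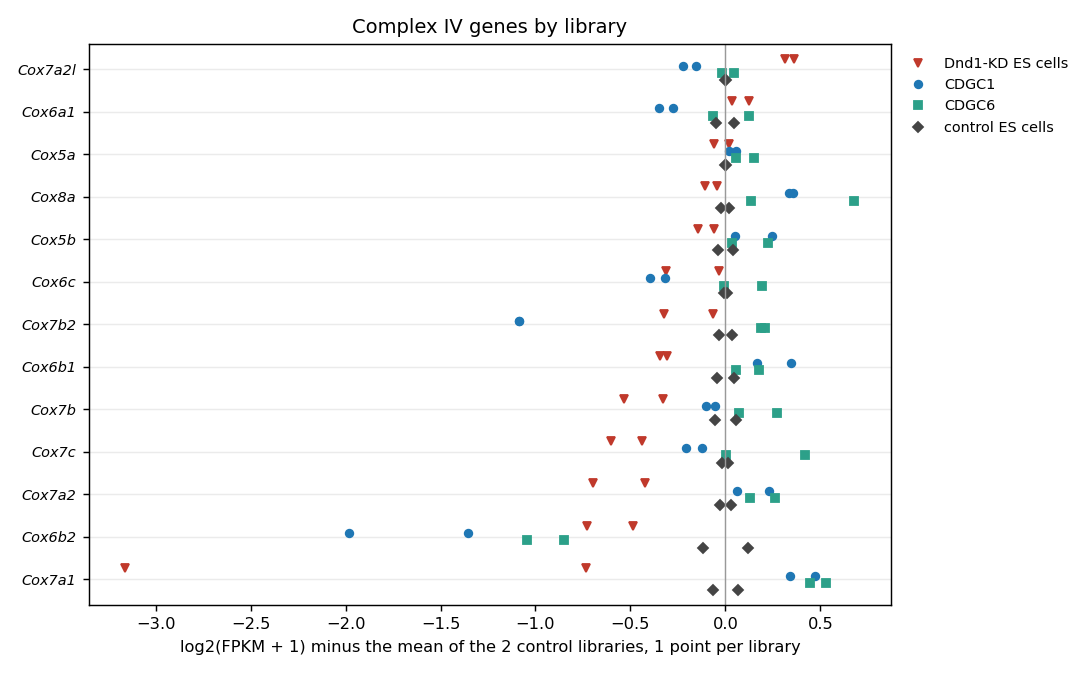
Each library's log2(FPKM + 1) minus the mean of the control libraries for the 13 tested complex IV genes, ordered by the difference in Dnd1-KD, with Dnd1-KD, CDGC1, CDGC6 and control from top to bottom within each gene. Cox6b2 lies left of control in the 6 other libraries, Cox7a2l lies right of it in Dnd1-KD and left in CDGC1, and the Dnd1-KD libraries are far apart for Cox7a1.

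The promoter windows of the subunit 6B isoforms are shown to compare the isoform that fell with the one that rose in CDGC1. That of Cox6b2 (chr7:4753045-4753344, minus strand) held none of the 5 motifs searched, and that of Cox6b1 (chr7:30626065-30626364, minus strand) held the ETS letters in reverse, in capitals.
Cox6b2: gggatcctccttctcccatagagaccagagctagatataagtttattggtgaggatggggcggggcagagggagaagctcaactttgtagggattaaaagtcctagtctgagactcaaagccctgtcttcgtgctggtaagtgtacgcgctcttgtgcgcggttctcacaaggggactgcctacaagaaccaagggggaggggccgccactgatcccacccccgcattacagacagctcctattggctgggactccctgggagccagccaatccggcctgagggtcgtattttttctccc
Cox6b1: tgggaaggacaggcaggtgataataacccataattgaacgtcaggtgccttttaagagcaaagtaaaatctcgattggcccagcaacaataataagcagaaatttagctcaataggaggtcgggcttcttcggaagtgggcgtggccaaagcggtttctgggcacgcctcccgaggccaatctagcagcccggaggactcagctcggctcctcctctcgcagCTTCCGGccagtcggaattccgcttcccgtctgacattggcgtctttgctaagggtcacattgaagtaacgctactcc

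In ATP synthase of CDGC1 the rises lay in the head and central stalk, where 4 of 5 subunits were higher. Atp5c1, the gamma subunit that turns inside the head, was at 329 and 325 FPKM in CDGC1 and 203 and 197 FPKM in control (0.71 ± 0.06, adjusted p = 0.000305). Atp5b was at 1408 and 1391 FPKM in CDGC1 and 964 and 982 FPKM in control (0.52 ± 0.06, adjusted p = 0.000561). The differences of Atp5d and Atp5a1 were smaller, 0.26 ± 0.08 (adjusted p = 0.0345) and 0.20 ± 0.07 (adjusted p = 0.0495), and Atp5e did not pass (−0.11, adjusted p = 0.260). Of the c subunit genes Atp5g3 rose, at 557 and 505 FPKM in CDGC1 and 408 and 409.8 FPKM in control (0.38 ± 0.08, adjusted p = 0.00908). No gene of the peripheral stalk and none of the small membrane subunits passed. Atp5sl, named with ATP synthase but known as a protein of complex I assembly, fell, at 17.2 and 21.1 FPKM in CDGC1 and 28.0 and 28.6 FPKM in control (−0.55 ± 0.11, adjusted p = 0.00758). The calls of Atp5a1, Atp5d and Atp5g3 were lost with the first control library left out (adjusted p = 0.0541 to 0.164) or the second (adjusted p = 0.0511 to 0.196). Atp5a1 and Atp5d were not called without either CDGC1 library (adjusted p = 0.0502 to 0.109 without the first, 0.114 to 0.119 without the second), and Atp5a1 was not called without either Dnd1-KD library (0.0583 and 0.0582). With quantile normalization the calls of Atp5a1 and Atp5d ended.

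Across CDGC1 members, 10 rises and 3 falls stayed called whichever library was left out. The rises were those of Atp5b, Atp5c1, Atp5s, Ndufa12, Ndufa2, Ndufa8, Ndufc2, Ndufs4, Ndufv2 and Uqcrq, and the falls those of Atp5sl, Cox6b2 and Cox7b2.

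In CDGC6 few members differed from control. Of the 77 members 8 rose and 1 fell, while over all genes tested 8.42% were called higher and 10.2% lower (18.6% in all). The median difference was 0.16, against −0.01 over all genes tested, and it was 0.21 without the first CDGC6 library and 0.064 without the second. In all 64 of the 77 differences were positive, and in 46 members both CDGC6 libraries lay above both control libraries (34.0% of all genes tested), with 6 below (37.3%). With median-ratio scaling 7 rose and 2 fell, and Ndufv2 was not called. Complex I held 6 of the 8 rises. Ndufv3 was at 121 and 119 FPKM in CDGC6 and 72.3 and 65.9 FPKM in control (0.79 ± 0.09, adjusted p = 0.00459). Ndufs4 was at 43.9 and 47.9 FPKM in CDGC6 and 31.7 and 32.5 FPKM in control (0.50 ± 0.08, adjusted p = 0.0122). Ndufc2 (0.42), Ndufa2 (0.41), Ndufa6 (0.34) and Ndufv2 (0.28) rose by less. In complex V the c subunit gene Atp5g2 rose, at 393 and 413 FPKM in CDGC6 and 326 and 326 FPKM in control (0.30 ± 0.08, adjusted p = 0.0423), next to Atp5s. The 1 fall was that of Cox6b2 (−0.95 ± 0.22, adjusted p = 0.0337).

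The median difference in CDGC6 was 0.14 without the first control library and 0.17 without the second. More members rose without the first CDGC6 library, and fewer without the second or without either control library. The share of all genes tested that was called higher was smaller in each of these fits, where 1 group has 1 library. Ndufv3 and Atp5s stayed called whichever library was left out. The calls of Ndufa2, Ndufa6, Ndufc2, Ndufs4 and Ndufv2 were lost with the first control library left out (adjusted p = 0.0777 to 0.198) or the second (adjusted p = 0.0774 to 0.221), and those of Ndufa2, Ndufc2 and Ndufv2 without the second CDGC6 library (adjusted p = 0.0562 to 0.143). Ndufc2 and Ndufv2 were not called without either Dnd1-KD library (adjusted p = 0.0581 to 0.0676 without the first, 0.0581 to 0.0675 without the second), nor Ndufv2 without either CDGC1 library (0.0523 and 0.0522). That of Atp5g2 ended without either CDGC6 library (0.0803 and 0.137) or either control library (0.185 and 0.192). The fall of Cox6b2 ended without any 1 of the CDGC6, control or Dnd1-KD libraries (adjusted p = 0.0565 to 0.1701). Of the pluripotency markers none was called in CDGC6 (limma, none of 8), and the 7 with entries of their own summed to 1869 to 2216 FPKM in CDGC6 and 1832 to 1833 FPKM in control. All 5 tested fibroblast or feeder markers were higher, with sums of 24.2 to 31.8 FPKM in CDGC6 and 6.51 to 7.20 FPKM in control, and with Lum at 0 in CDGC6. The part of that in these results was not tested.

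The derived lines also differed from each other, though in a smaller share of the members than of all genes tested. In CDGC1 against CDGC6 9 members rose (11.7%) and 12 fell (15.6%), while over all genes tested 23.0% were called higher and 24.1% lower (47.1% in all). The median difference was −0.06, against −0.02 over all genes tested, and its sign rested on 1 library: it was −0.14 without the first CDGC6 library and 0.052 without the second. The called members of complex IV all fell (5 of 13), those of complex V (3 of 17) and complex III (2 of 8) all rose, and complex I had 4 rises and 7 falls of 35. The comparisons of either line with control share the control libraries, while here the lines are set against each other directly. Ndufa8 was at 109 and 104 FPKM in CDGC1 and 64.0 and 63.5 FPKM in CDGC6 (0.73 ± 0.06, adjusted p = 0.000221). Ndufa12 was at 228 and 218 FPKM in CDGC1 and 148 and 150.2 FPKM in CDGC6 (0.57 ± 0.06, adjusted p = 0.000479). Atp5c1 was at 329 and 325 FPKM in CDGC1 and 210.2 and 229 FPKM in CDGC6 (0.58 ± 0.06, adjusted p = 0.000831), and Atp5b rose with it (0.40 ± 0.06, adjusted p = 0.00193). The groups did not overlap in any of these genes.

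Among the falls, the joint Ndufa7 value was at 169 and 179 FPKM in CDGC1 and 232 and 239 FPKM in CDGC6 (−0.43 ± 0.07, adjusted p = 0.00430). Ndufa6 was at 93.2 and 97.5 FPKM in CDGC1 and 125 and 127 FPKM in CDGC6 (−0.40 ± 0.05, adjusted p = 0.00181), and Ndufv3 at 84.3 and 96.7 FPKM in CDGC1 and 121 and 119 FPKM in CDGC6 (−0.41 ± 0.09, adjusted p = 0.0123). Cox6c was at 246 and 233 FPKM in CDGC1 and 305 and 351 FPKM in CDGC6 (−0.45 ± 0.11, adjusted p = 0.0184), and Cox6a1 at 295 and 310.4 FPKM in CDGC1 and 359.9 and 411 FPKM in CDGC6 (−0.34 ± 0.08, adjusted p = 0.0175). Whichever library was left out, 5 rises (Atp5b, Atp5c1, Ndufa12, Ndufa8 and Ndufb7) and 3 falls (Cox7b2, Ndufa6 and Ndufa7) stayed called. Ndufv3 was not called without the first CDGC6 library (0.0517). Cox6a1 was not called without the first CDGC1 library (0.0733) or the second CDGC6 library (0.0675), nor Cox6c without the second CDGC1 library (0.0710) or the second CDGC6 library (0.0898). Uqcr10 and Ndufb9 lost their calls with quantile normalization and with median-ratio scaling, and Cox7a2l with the second of these. More members fell without the first CDGC6 library, and fewer without the second or without the first CDGC1 library. The share of all genes tested that was called lower was smaller in each of these fits. Pluripotency markers were lower in 4 of 8 cases in CDGC1 against CDGC6, among them Zfp42, Esrrb and the joint Dppa5a value, which were near 0 in CDGC1 and stood in CDGC6 at 223 and 304 FPKM, 56.2 and 74.6 FPKM and 2024 and 2750.1 FPKM. Sums of the 7 without Dppa5a were 1404 to 1427 FPKM in CDGC1 and 1869 to 2216 FPKM in CDGC6, and their part in these results was not tested.

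Genes that work with the complexes were taken from lists. Their counts are to be read against all genes tested, of which 20.7% were called higher and 15.5% lower in Dnd1-KD, 23.5% higher and 27.0% lower in CDGC1, and 8.42% higher and 10.2% lower in CDGC6. Among 12 subunits and electron carriers that the name pattern misses, 4 fell in Dnd1-KD (33.3%) and none rose. Cycs, cytochrome c, was at 44.5 and 44.5 FPKM in Dnd1-KD, 80.7 and 76.4 FPKM in CDGC1, 55.5 and 61.5 FPKM in CDGC6 and 60.3 and 63.5 FPKM in control. It fell in Dnd1-KD (−0.47 ± 0.07, adjusted p = 0.00616), though not without the second control library (0.0516), and rose in CDGC1 (0.34 ± 0.07, adjusted p = 0.00997), though not without the first (0.0747). CDGC1 had 3 rises and 3 falls on this list (25.0% each) and CDGC6 1 rise (8.33%), shares near those of all genes. Cox4i1, the largest nuclear subunit of complex IV, fell in CDGC1, at 412 and 436 FPKM in CDGC1 and 587 and 580.3 FPKM in control (−0.46 ± 0.07, adjusted p = 0.00254). Dhodh, which feeds electrons from pyrimidine synthesis into the chain, was at 8.03 and 9.36 FPKM in CDGC1 and 17.8 and 18.2 FPKM in control (−0.97 ± 0.20, adjusted p = 0.00833).

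Of 42 tested assembly factors of 46 listed, 3 rose and 9 fell in Dnd1-KD (7.14% and 21.4%), 13 rose and 3 fell in CDGC1 (31.0% and 7.14%), and 8 rose and 1 fell in CDGC6 (19.0% and 2.38%). In CDGC1 against CDGC6 10 rose and 8 fell (23.8% and 19.0%), near or below the 23.0% and 24.1% of all genes tested. The median differences were −0.12 in Dnd1-KD, 0.10 in CDGC1, 0.11 in CDGC6 and −0.01 in CDGC1 against CDGC6, against 0.02, −0.03, −0.01 and −0.02 over all genes tested. Coa3, needed for complex IV, was at 28.8 and 24.9 FPKM in Dnd1-KD and 41.1 and 41.0 FPKM in control (−0.60 ± 0.08, adjusted p = 0.00386). In CDGC1 Atpaf2, a chaperone of the ATP synthase alpha subunit, was at 30.1 and 30.2 FPKM, against 16.4 and 16.9 FPKM in control (0.82 ± 0.10, adjusted p = 0.000895), and Tmem70, which serves c ring assembly, at 19.0 and 20.4 FPKM, against 12.4 and 12.4 FPKM in control (0.62 ± 0.08, adjusted p = 0.00112). Ndufaf6, a complex I factor, rose in CDGC1 as well (0.81 ± 0.09, adjusted p = 0.000558), whereas the complex I factor Tmem126b fell there (−0.78 ± 0.08, adjusted p = 0.000446). The joint value of Sco2, a copper chaperone of complex IV, and Tymp was listed at 0 in both CDGC6 libraries and at 25.3 and 25.8 FPKM in control, which can be a failed estimate.

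Of 17 tested regulators of mitochondrial genes of 20 listed, 1 rose and 7 fell in Dnd1-KD (5.88% and 41.2%) and in CDGC1 alike, and none rose and 2 fell in CDGC6 (11.8%, near the share of all genes). In CDGC1 47.1% of the list was called in either direction, near the 50.5% of all genes. Median differences were −0.08 in Dnd1-KD, −0.23 in CDGC1 and −0.14 in CDGC6. Nrf1, the factor that binds the NRF1 letters, passed in no comparison, with 29.1 and 29.4 FPKM in Dnd1-KD, 26.3 and 25.6 FPKM in CDGC1, 27.5 and 28.1 FPKM in CDGC6 and 32.9 and 28.6 FPKM in control. Esrrb, an orphan nuclear receptor of naive pluripotency, was at 0.211 and 0.140 FPKM in CDGC1, against 56.2 and 74.6 FPKM in CDGC6 and 78.6 and 82.9 FPKM in control (−6.12 ± 0.17, adjusted p = 6.41e-06, for CDGC1 against control). Its relative Esrra, known to drive respiratory genes with PGC-1 coactivators, was at 10.1 and 9.17 FPKM in CDGC1 and 4.87 and 6.25 FPKM in control (0.70 ± 0.15, adjusted p = 0.00869), not called once the first control library was left out (0.0560). Polg, the mitochondrial DNA polymerase, fell in both derived lines, with differences of −0.70 ± 0.10 in CDGC1 (adjusted p = 0.00167) and −1.18 ± 0.10 in CDGC6 (adjusted p = 0.00168). The joint value of Nolc1 and Pprc1, a gene of the PGC-1 family of coactivators, fell in Dnd1-KD (−0.56 ± 0.08, adjusted p = 0.00474).

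Of the 19 genes of the TCA cycle and of pyruvate dehydrogenase, which supply NADH and succinate, 1 rose and 7 fell in Dnd1-KD (5.26% and 36.8%), 5 rose and 1 fell in CDGC1 (26.3% and 5.26%), and 1 rose in CDGC6 (5.26%). The share of rises in CDGC1 was near that of all genes tested, 23.5%. The median differences were −0.27 in Dnd1-KD, 0.16 in CDGC1 and 0.06 in CDGC6. Idh3g was at 45.1 and 39.6 FPKM in Dnd1-KD and 72.5 and 73.1 FPKM in control (−0.77 ± 0.09, adjusted p = 0.00250), and Idh3a, a subunit of the same NAD-dependent isocitrate dehydrogenase, fell with it (−0.54 ± 0.06, adjusted p = 0.00247). Idh2, the NADP-dependent enzyme of the matrix, was at 45.6 and 51.6 FPKM in CDGC1, 49.6 and 47.8 FPKM in CDGC6 and 25.0 and 23.6 FPKM in control, and passed in both lines (adjusted p = 0.000420 and 0.00259). Suclg2, a subunit of succinyl-CoA synthetase, was at 68.7 and 67.9 FPKM in CDGC1 and 25.6 and 25.0 FPKM in control (1.40 ± 0.08, adjusted p = 4.57e-05).

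Among 7 carriers and channels that move ADP, ATP, phosphate and protons across the mitochondrial membranes, 5 fell and none rose in Dnd1-KD, 5 rose and none fell in CDGC1, and 1 rose and 1 fell in CDGC6. These compare with 15.5% of all genes called lower in Dnd1-KD and 23.5% called higher in CDGC1, and the median differences of the 7 were −0.32 in Dnd1-KD, 0.32 in CDGC1 and 0.11 in CDGC6. In Dnd1-KD the falls of the channels Vdac1, a joint value, and Vdac2 ended in 4 and 3 of the 8 cases in which a library was left out (adjusted p = 0.106 to 0.147 and 0.0762 to 0.106). The rise of Vdac2 in CDGC1 ended in 3 (0.0692 to 0.116) and the fall of Slc25a4 in CDGC6 in 4 (0.0664 to 0.158). Slc25a5, the adenine nucleotide carrier ANT2, was at 280.5 and 239 FPKM in Dnd1-KD and 506 and 492 FPKM in control (−0.94 ± 0.10, adjusted p = 0.00207), and its isoform Slc25a4 fell as well (−0.55 ± 0.07, adjusted p = 0.00285). Slc25a3, the phosphate carrier, was at 539 and 465 FPKM in CDGC1 and 300.3 and 298 FPKM in control (0.74 ± 0.09, adjusted p = 0.000861). Ucp2, a carrier of the uncoupling protein family, was at 52.5 and 63.8 FPKM in CDGC1, 68.3 and 62.1 FPKM in CDGC6 and 31.6 and 31.3 FPKM in control. It passed in both lines (adjusted p = 0.00373 and 0.00845), in CDGC6 only with both control libraries present (0.0568 and 0.0590 without one).

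RefSeq promoter windows were at hand for 69 of the 82 members, 75 windows in all, and were set beside the 32851 windows of all genes. The NRF1 letters CGCATGCGC occurred in 10.7% of member windows and 1.75% of all windows, the ETS letters CCGGAAG in 21.3% and 8.86%, the YY1 letters AAGATGGC in 16.0% and 2.75%, the ESRRB letters AAGGTCA in 10.7% and 4.72%, and the letters TGACGTCA of the cAMP response element in 5.33% and 1.79%, each searched on both strands. Median GC content was 57.3% in member windows and 52.7% in all. Members with the NRF1 letters were Atp5g2, Atp5k, Atp5l, Cox6a1, Ndufa11, Ndufa8, Uqcr11 and Uqcrc1, of which 2 of 8 tested fell in Dnd1-KD, against 19 of 60 tested without the letters. In CDGC1 1 of 8 tested members with the ESRRB letters rose and none fell, against 17 and 6 of 60 without them. In Dnd1-KD 4 of these 8 fell and none rose, against 17 and 2 of 60 without the letters. These counts describe the windows and were not tested.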

How the data were processed

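Poly(A) RNA-seq of 8 libraries was deposited as 1 gene table per library. The authors' FPKM values and their intervals are taken as deposited, per the file headers; TopHat2, Bowtie, Cufflinks, Cuffdiff and mm10 are named, without versions, in the submitters' processing notes. Unnamed assembled transcripts were left out, and so were 24 names turned into dates. The unnamed transcripts held 76.8% of all FPKM in the second CDGC6 library and 82.8 to 85.6% in the others. FPKM were summed per symbol, and symbols joined in any table were kept as 1 unit. Tests used limma 3.58.1 in R 4.3.3 on log2(FPKM + 1), with 1 mean per group over all 8 libraries, a trended prior, two-sided, adjusted by Benjamini-Hochberg over 11886 units. Differences on this scale understate those of low genes. Tables were handled in Python 3.11.15. The test was checked on simulated data whose changes were larger than most differences given here, so that check does not cover small differences. Members and lists were chosen with earlier results of these data known. Named genes are, per comparison and complex, up to 3 called members in each direction by size (not overlapping, none at 0, at least 5 FPKM), plus core and restricted-isoform genes and up to 4 genes per pathway list by smallest p. Others given in the text were chosen after their values were seen. Alternatives were other pseudocounts, filters, scalings, fits with fewer groups, a replicate block, an untrended prior, other handling of joint entries and zeros, and leaving out each library, where the lone library of a group is assumed to vary like the other groups. Gene positions are from GENCODE vM21 and promoters from RefSeq on GRCm38. Values of 1 gene are counted in the totals but not reported here.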

Additional observations from a re-analysis of the deposited data

Results flagged for a closer look

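The 21 values here are the tested differences between CDGC1 and CDGC6 that passed, that is, genes whose difference from control was not the same in the derived lines, since both are set against the same control libraries. All are log2 differences of CDGC1 minus CDGC6 with the limma test of that difference. Of the 12 genes lower in CDGC1, 5 belong to complex IV: Cox7b2 (−1.29, listed at 0 in CDGC1), Cox6b2 (−0.72), Cox6c (−0.45), Cox6a1 (−0.34) and Cox7a2l (−0.20). The 7 lower in complex I were Ndufa7 (−0.43, a joint value), Ndufv3 (−0.41), Ndufa6 (−0.40), Ndufs6 (−0.38), Ndufb4 (−0.36), Ndufv1 (−0.32) and Ndufb9 (−0.21). The 9 genes higher in CDGC1 were Ndufa8 (0.73), Ndufa12 (0.57), Ndufb7 (0.40) and Ndufc2 (0.32) in complex I, Uqcr10 (1.11) and Uqcrq (0.52) in complex III, and Atp5c1 (0.58), Atp5b (0.40) and Atp5g3 (0.28) in complex V. The Uqcr10 value rests on CDGC1 libraries 2.42-fold apart. Of the 77 members 11.7% were higher and 15.6% lower in CDGC1, below the 23.0% and 24.1% of all genes tested. Many of the calls ended when a library was left out.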

How the results depend on the processing

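Several counts of called members moved by more than 1.5 times. In Dnd1-KD against control the 2 rises became 4 with no filter, 1 with a filter of 5 FPKM and 6 with quantile normalization. Under quantile normalization the 23 falls became 12, a smaller share than the 18.7% of all genes tested that were called lower, while 18.6% of all genes were called higher. In CDGC1 against control the 7 falls became 4 with median-ratio scaling. In CDGC6 against control the 1 fall became 2 with median-ratio scaling, 2 with only the compared groups fitted and 0 with the replicate block. In CDGC1 against CDGC6 the 12 falls became 5 with only the compared groups fitted. The median difference of the members in CDGC1 against CDGC6 changed sign without the second CDGC6 library (0.052). Leaving out each library in turn gave 1 to 3 rises and 2 to 28 falls in Dnd1-KD, 10 to 26 rises and 4 to 7 falls in CDGC1, 2 to 15 rises and 0 to 2 falls in CDGC6, and 6 to 9 rises and 5 to 20 falls in CDGC1 against CDGC6. Counts over all genes tested moved as well when a library was left out. Atp5b in Dnd1-KD changed sign with quantile normalization (0.026, adjusted p = 0.804). The cause was not tested. Of the other values of named genes, 2364 stayed on the same side of the threshold, 206 lost the call and 39 gained one. A change of sign was looked for only in genes called before the alternatives. The 2364 therefore include uncalled genes whose direction was not followed. With the replicate block Dnd1-KD had 2 rises and 23 falls, CDGC1 19 and 8, CDGC6 6 and 0, and CDGC1 against CDGC6 9 and 12. Same-numbered libraries had deviations correlated at −0.0787 to 0.145 over genes, and the libraries share only a number. Low genes are the least certain: the files' own interval was 0 to 72.2 FPKM for Atp5s in the second CDGC1 library and 0.623 to 1.52 FPKM for Cox7b2 in the first control library.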
